A study of Mus musculus with 6 samples.

Results

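The genes described here carry the prolactin signal inside the mammary gland: the kinase Jak2, the transcription factors Stat5a, Stat5b and Elf5, and the feedback inhibitors Cish, Socs1, Socs2 and Socs3. They were taken by name, with the receptor gene Prlr, as a list of 9 genes. A gene counted as measured when a probe set was annotated to its symbol alone, and it was read from its brightest probe set over all arrays. By that rule 8 of the 9 were measured, with 19 probe sets in all, out of 18193 named genes. Prlr is not analysed here, because no probe set was assigned to it with the annotation used. The mice were virgin females, 4 months old and on the FVB/N background. One group, WT, was wild type, and the other, Cav-3KO, lacked caveolin-3, the caveola coat protein of muscle. None was treated. Whole mammary gland RNA was hybridised to 1 single-channel Affymetrix array per sample, with 3 arrays per genotype. The labels do not say whether each array stands for a different mouse, so p-values measure the spread between these samples, which may in part be technical.

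Prolactin binds a receptor without enzyme activity of its own and activates the JAK2 kinase attached to it. JAK2 phosphorylates STAT5A and STAT5B, which form dimers, enter the nucleus and bind DNA at sites of the form TTCNNNGAA, where N is any base. STAT5A is the main form in the gland, and alveoli that make milk need it. ELF5, an ETS-domain transcription factor of luminal progenitor and alveolar cells, is needed for the same step. The CISH and SOCS proteins are made in response to cytokines and damp the receptor or the kinase, which closes a negative feedback loop.

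Values are log2 RMA values, so a difference of 1 is a 2-fold change, and every difference below is Cav-3KO minus WT with its moderated standard error (SE). A gene passed the test when its limma p, adjusted by the Benjamini-Hochberg method over 45037 probe sets, was under 0.05. Medians of the 6 arrays lay between 5.77 and 5.80, and correlations over all probe sets were 0.990 to 0.995 within and 0.977 to 0.987 between genotypes. The targeted gene did not check the genotypes: Cav3 read 4.79, 5.02 and 4.74 in WT and 4.76, 4.83 and 4.72 in Cav-3KO, and the groups overlapped. All 12 luminal and 9 basal epithelial markers had means over the 6 arrays above the highest mean of the Y-linked probe sets, 6.16, a level for transcripts that female tissue lacks. That mean comes from 1 probe set of Sry whose suffix marks possible cross-hybridisation. The next highest Y-linked mean was 5.04 and the median 2.88, so a reading just under 6.16 need not be background. Where 1 genotype's mean lay below that level, the difference is given as a bound, with that genotype's arrays under 6.16 raised to it. Where both lay below, no difference is read. The bounds were not tested, and an adjusted p beside a bound is that of the fitted difference of the unraised values.

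Elf5 and Stat5a rose in Cav-3KO glands, and no member fell. That is 2 of 8 measured members higher, where 7.65% of all named genes were higher and 16.2% passed in either direction. Cish, Socs2 and Stat5b lay above every WT array without passing the test, while Jak2 and Socs3 overlapped between the genotypes and Socs1 stayed near background. For 6 of the 8 the groups did not overlap, against 38.3% of all named genes. Socs1 is among the 6, with lower readings in Cav-3KO. Both of its groups lay below the highest Y-linked mean, so no difference is read from it. The median log2 difference of the 8 was 0.51, beside −0.01 over all named genes. The members were chosen as a pathway, with earlier results of the same arrays known. Without WT 3 the test called 4 members, and without Cav-3KO 3 it called 1. In whole tissue, more cells of a type and more RNA per cell cannot be told apart, nor can fewer cells and less RNA per cell.

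**Figure D1:**
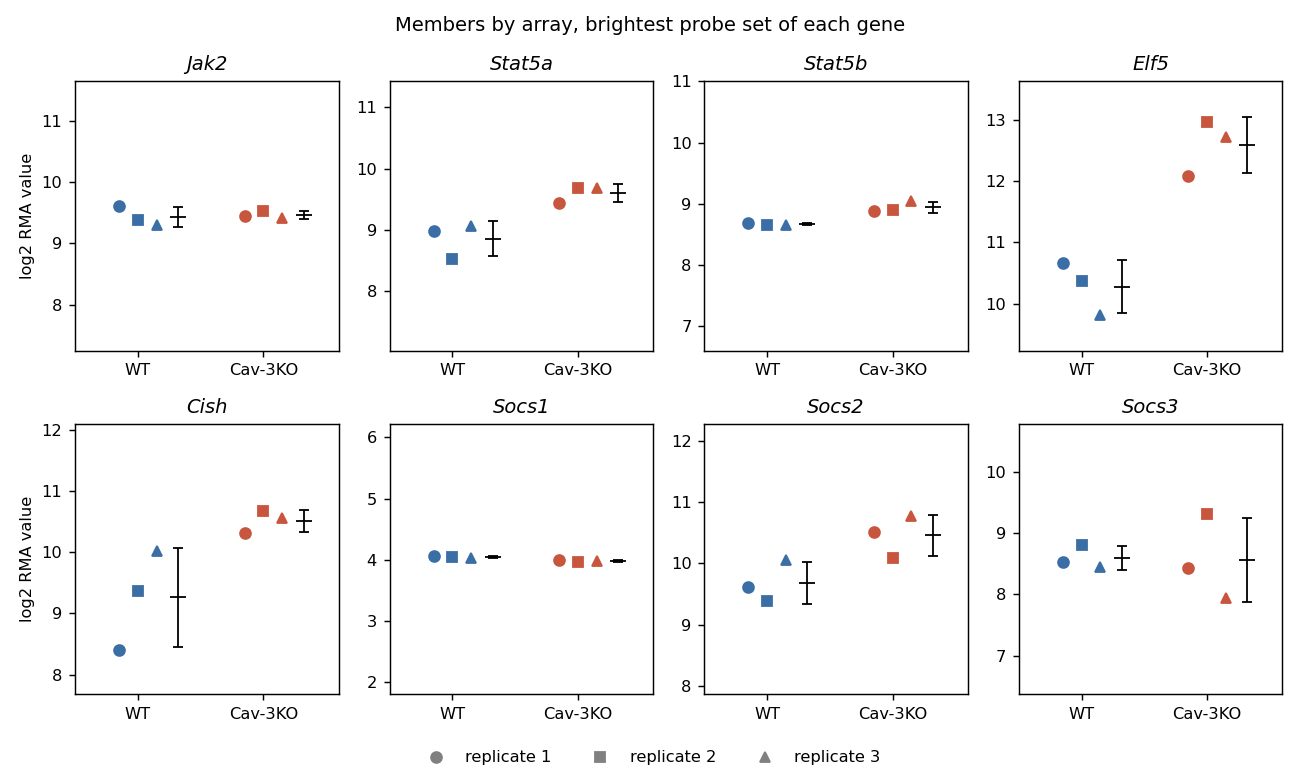
Log2 RMA value of each member's brightest probe set on each array, in separate panels with axes of the same length. Marker shapes give the replicate number, and the bar to the right of each group is the mean with its SD (n = 3). Elf5 shows the widest gap between the groups, and for Jak2 and Socs3 the groups overlap.

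The kinase that starts the cascade was level between the genotypes. Jak2 read 9.61, 9.38 and 9.29 in WT and 9.45, 9.54 and 9.41 in Cav-3KO. All Cav-3KO values fell within the WT range. The difference was 0.04 ± 0.11 (SE), with a 95% confidence interval from −0.21 to 0.28 (adjusted p = 0.873 by limma). Its second probe set gave a log2 difference of 8e-04 (interval −0.23 to 0.23).

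Stat5a, the STAT that dominates in the gland, read 8.98, 8.53 and 9.06 in WT and 9.44, 9.68 and 9.69 in Cav-3KO. Every Cav-3KO array was above every WT array, and WT 2 was the lowest. The gene rose by 0.74 ± 0.15, 1.67-fold (adjusted p = 0.0202 by limma, and p = 0.1 in the exact permutation test, two-sided, the smallest that 20 splits of 6 arrays allow). On a second, dimmer probe set of Stat5a the WT arrays read 5.96, 5.48 and 6.28 and the Cav-3KO arrays 6.95, 6.97 and 7.27, again with WT 2 lowest. The WT mean of that set was below the highest Y-linked mean, so its rise is a bound of at least 0.86 (adjusted p = 0.0113 for the fitted difference of 1.16). Without Cav-3KO 3 the difference of the brighter set was 0.70 and its adjusted p 0.0776, and with mean skeletal muscle marker level added to the model they were 0.66 and 0.0556.

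Stat5b is the close relative of Stat5a and its neighbour in the genome, and it carries most of the growth hormone response in liver. It read 8.68, 8.66 and 8.65 in WT and 8.88, 8.90 and 9.05 in Cav-3KO. The WT arrays lay within 0.03 of each other and all Cav-3KO arrays were above them. The difference of 0.28 ± 0.09 did not pass (adjusted p = 0.0770). Its second probe set overlapped between the groups, with a difference of 0.01 ± 0.09. The probe sets of both STAT5 genes carry a suffix for sets that match several transcripts of 1 gene. Stat5a minus Stat5b within each array was 0.30, −0.12 and 0.41 in WT and 0.56, 0.78 and 0.64 in Cav-3KO. It was therefore higher on every Cav-3KO array, by 0.46 on average (exact permutation p = 0.1, two-sided, the smallest possible here).

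Elf5 showed the largest change of the 8 members. It read 10.67, 10.36 and 9.81 in WT and 12.08, 12.96 and 12.72 in Cav-3KO. The lowest Cav-3KO array was 1.42 log2 units above the highest WT array. Elf5 rose by 2.31 ± 0.27, 4.95-fold, with a 95% interval from 1.68 to 2.93 (adjusted p = 0.00314). Its second probe set read 4.78, 4.66 and 4.62 in WT, where it lay below the highest Y-linked mean, and 6.10, 7.78 and 6.80 in Cav-3KO. That set rose by at least 0.73 (adjusted p = 0.00919 for the fitted difference of 2.21), and Cav-3KO 2 was the highest on both sets. Elf5 passed under all 16 alternatives tried, with differences between 2.07 and 2.58.

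Elf5 has 2 annotated starts in RefSeq (build GRCm38.p6). The windows from 250 bases before to 50 bases after each are shown because this gene moved most. Neither window holds TTCNNNGAA, so no base is in capitals. The first lies at chr2:103411848-103412147 and the second at chr2:103423818-103424117, both on the plus strand.
Elf5 start 1: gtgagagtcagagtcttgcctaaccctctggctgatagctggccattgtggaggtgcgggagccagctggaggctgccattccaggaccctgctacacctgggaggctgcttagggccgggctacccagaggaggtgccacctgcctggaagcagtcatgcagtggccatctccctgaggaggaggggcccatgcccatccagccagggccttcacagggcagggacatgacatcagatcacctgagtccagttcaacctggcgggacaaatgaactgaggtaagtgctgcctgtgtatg
Elf5 start 2: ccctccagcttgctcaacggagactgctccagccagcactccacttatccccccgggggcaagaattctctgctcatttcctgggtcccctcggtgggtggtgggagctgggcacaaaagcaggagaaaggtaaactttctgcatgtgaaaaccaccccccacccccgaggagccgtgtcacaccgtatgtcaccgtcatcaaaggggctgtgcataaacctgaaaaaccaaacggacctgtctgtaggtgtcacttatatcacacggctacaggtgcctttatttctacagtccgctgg

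The genes whose profile over the 6 arrays was most like that of Elf5 were Igsf5, Kctd14 and Slc39a14. Likeness was the root mean square difference in log2 units after centring each gene on its own mean, and it was 0.143, 0.146 and 0.168. Igsf5, a junctional adhesion molecule, read 5.87, 5.57 and 5.41 in WT, below the highest Y-linked mean, and 7.34, 8.39 and 8.09 in Cav-3KO. Its likeness to Elf5 therefore rests in part on WT readings below that level. Slc39a14, a zinc and iron importer, read 8.78, 8.79 and 8.30 against 10.22, 11.02 and 10.83. Kctd14 read 7.46, 6.86 and 6.21 against 8.55, 9.29 and 9.28, on a probe set whose suffix marks possible cross-hybridisation. In all 3 the Cav-3KO 1 array was the lowest of its group, as it was for Elf5. The measure uses the genotype difference itself, so it describes the arrays and is not a test.

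Cish encodes the first feedback inhibitor found for cytokine receptors, and it is a textbook STAT5 target. It read 8.41, 9.37 and 10.02 in WT and 10.31, 10.67 and 10.55 in Cav-3KO. The WT arrays spread widely and the highest came within 0.29 of the lowest Cav-3KO array. The difference was 1.25 ± 0.35, with an interval from 0.43 to 2.06, and it did not pass (adjusted p = 0.0571). Without WT 3 it was 1.62 (adjusted p = 0.0250), and without WT 1, the lowest array, it was 0.82 (adjusted p = 0.0639). It also did not pass without WT 2, Cav-3KO 1, Cav-3KO 2 or Cav-3KO 3 (adjusted p = 0.12, 0.0931, 0.109 and 0.158). Cish has 1 probe set, so no second reading is available.

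The start windows of 7 measured members, all but Socs2, were searched for TTCNNNGAA, the STAT5 site, which reads the same on both strands. Those of Cish and Socs3 are shown because they hold it. Of 3 windows of Prlr, whose level is not analysed here, 1 holds TTCTAGGAA. Capitals mark each match. No other motif was searched. Of 32851 RefSeq windows of 300 bases, 8.3% held at least 1 match and 0.457% held 2 or more. Cish, at chr9:107296409-107296708 on the plus strand, holds 2 matches that are 2 bases apart, TTCCTGGAA and TTCTTGGAA. Socs3, at chr11:117969317-117969616 on the minus strand, holds 1, TTCTTAGAA. A match describes the sequence and is not evidence of binding in these glands.
Cish: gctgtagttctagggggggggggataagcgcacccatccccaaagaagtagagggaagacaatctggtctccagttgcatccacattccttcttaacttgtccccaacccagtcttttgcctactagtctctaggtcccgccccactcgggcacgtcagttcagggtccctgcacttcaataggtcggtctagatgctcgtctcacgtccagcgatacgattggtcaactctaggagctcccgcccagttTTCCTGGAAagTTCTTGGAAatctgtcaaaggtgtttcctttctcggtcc
Socs3: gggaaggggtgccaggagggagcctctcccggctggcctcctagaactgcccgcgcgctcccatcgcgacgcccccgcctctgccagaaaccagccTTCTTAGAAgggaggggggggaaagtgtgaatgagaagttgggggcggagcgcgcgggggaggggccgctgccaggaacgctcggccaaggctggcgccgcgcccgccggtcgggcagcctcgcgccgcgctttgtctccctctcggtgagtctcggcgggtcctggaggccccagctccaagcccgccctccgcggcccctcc

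Socs2, which restrains growth hormone and prolactin signalling, read 9.61, 9.38 and 10.06 in WT and 10.50, 10.09 and 10.77 in Cav-3KO. Cav-3KO 2 was above WT 3 by only 0.03. The difference of 0.77 ± 0.21, 1.71-fold, did not pass on this probe set (adjusted p = 0.0553). The next brightest of its 6 probe sets gave 0.77 ± 0.24 (adjusted p = 0.0788), and another, which read 6.51, 6.52 and 6.70 in WT and 7.40, 6.84 and 7.36 in Cav-3KO, rose by 0.62 ± 0.16 (adjusted p = 0.0407). The other 3 sets overlapped between the groups, a pair of them with differences of 0.15 and 0.09 and the third below the highest Y-linked mean. The brightest set passed without WT 3 (difference 0.96, adjusted p = 0.0449) and without Cav-3KO 2 (0.95 and 0.0242). It did not pass without WT 1, WT 2, Cav-3KO 1 or Cav-3KO 3 (adjusted p = 0.142, 0.154, 0.122 and 0.170). Cav-3KO 2 was the lowest of its group on each of the 3 sets with the larger differences.

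Socs3, the inhibitor induced most by interleukin-6 type cytokines through STAT3, read 8.53, 8.81 and 8.45 in WT and 8.42, 9.30 and 7.95 in Cav-3KO. The WT arrays lay inside the Cav-3KO range, which ran from Cav-3KO 3 to Cav-3KO 2. The difference was −0.04 ± 0.30, with an interval from −0.74 to 0.67, wide enough to hold the change seen for Stat5b. This set, the brightest, has the suffix for possible cross-hybridisation. Its other 2 probe sets gave 0.05 and −0.20 with overlapping groups. Socs1, which blocks JAK kinases directly, read 4.06, 4.05 and 4.03 in WT and 3.99, 3.97 and 3.98 in Cav-3KO. Both groups lay below the highest Y-linked mean, so no difference is read from this set (adjusted p = 0.643).

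**Figure D2:**
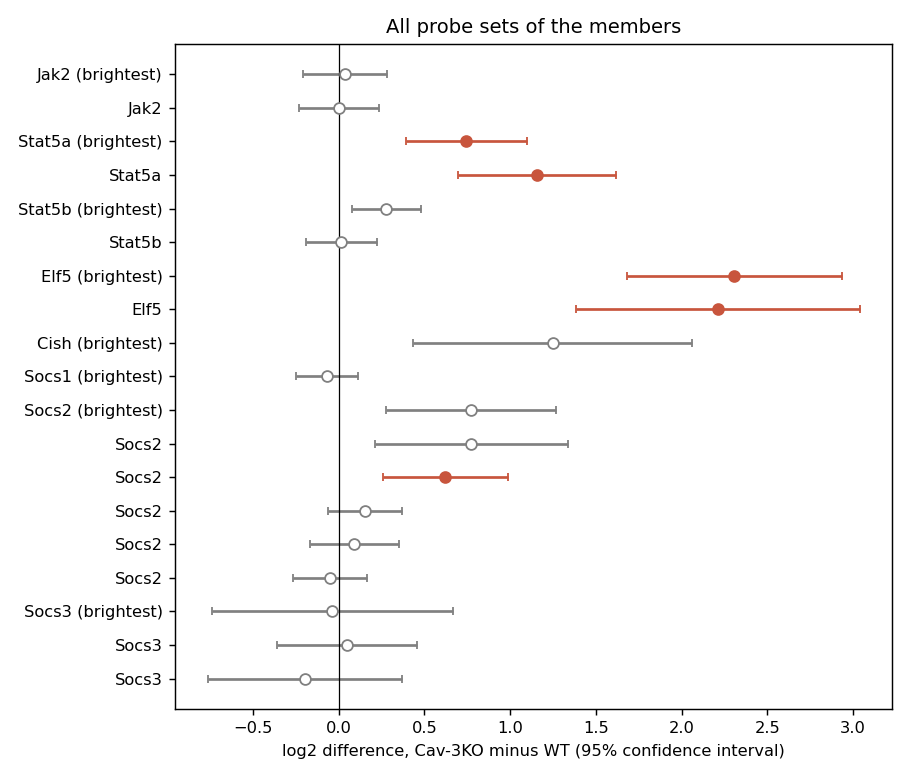
Log2 difference, Cav-3KO minus WT, of each of the 19 probe sets of the members, ordered by gene and, within a gene, from the brightest down. Bars are 95% confidence intervals from limma, and filled points passed the adjusted threshold. Both sets of Stat5a and of Elf5 are filled, and 1 of the 6 sets of Socs2. For the dimmer set of Stat5a and of Elf5 the WT mean was below the highest Y-linked mean, so the plotted difference is not exact.

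Most luminal and basal epithelial markers were higher in Cav-3KO, as Elf5 and Stat5a were, while Jak2 and Socs3 were level. Of 12 luminal markers 10 were higher and 0 lower in Cav-3KO (83.3% higher, beside 7.65% of all named genes). The mean log2 value of that list was 9.11, 8.51 and 8.79 in WT and 10.06, 9.79 and 9.95 in Cav-3KO. Of 9 basal markers 8 were higher (88.9%) and 0 lower. The count of higher basal markers was 5 without WT 1 and 4 without WT 3. Their list mean ranged from 8.78 to 8.93 in WT and from 9.63 to 9.76 in Cav-3KO.

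Set against the luminal list in the same array, the members parted. Elf5 minus the luminal mean was 1.56, 1.86 and 1.02 in WT and 2.02, 3.17 and 2.78 in Cav-3KO, higher on all Cav-3KO arrays by 1.18 on average (exact permutation p = 0.1, two-sided). Cish changed by 0.12 on this scale and its groups overlapped (exact p = 0.9). Stat5a minus the luminal mean was −0.13, 0.02 and 0.27 in WT and −0.62, −0.11 and −0.26 in Cav-3KO, a mean change of −0.39 with overlapping groups (exact p = 0.2). Socs2 changed by −0.36, also with overlap (exact p = 0.2). Jak2 minus the luminal mean was lower on every Cav-3KO array than on any WT array, with a mean change of −1.09, and so was Stat5b minus the luminal mean, with −0.85 (exact p = 0.1 for each). The luminal list mean itself rose by 1.13, so any gene that was level between the genotypes, as Jak2 was, is lower on this scale. These values therefore do not show a fall of Jak2 or Stat5b within epithelial cells. Of the 8, Elf5 alone lay above the WT arrays on this scale in all 3 Cav-3KO arrays. With basal in place of luminal markers the mean change was −0.12 for Stat5a (exact p = 0.5), −0.095 for Socs2 (exact p = 0.7), 0.38 for Cish (exact p = 0.6) and 1.44 for Elf5 (exact p = 0.1). Without Cav-3KO 1 the luminal-based change of Stat5a was −0.24, and without WT 3 that of Socs2 was −0.17. The change of Socs2 was −0.55 without WT 1.

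**Figure D3:**
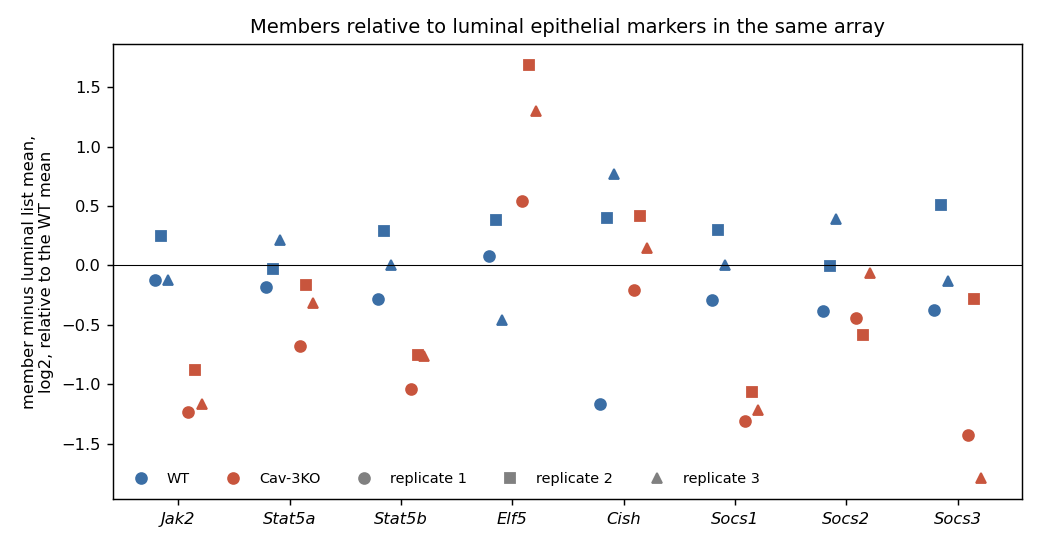
Log2 value of each member minus the mean log2 value of 12 luminal markers in the same array, shifted so that the WT mean is 0. Colours give the genotype and shapes the replicate number. Elf5 lies above the WT arrays in all Cav-3KO arrays, while Jak2 and Stat5b lie below. So does Socs1, whose own level is near background. The luminal mean itself rose by 1.13, so a gene that was level lies below the WT arrays here.

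Markers of other cell types were compared as well, and the part of these cells in the results was not tested. Over all named genes 8.51% were lower and 16.2% passed in either direction. Hormone-sensing luminal markers had list means of 9.08, 8.46 and 8.82 in WT and 8.45, 8.05 and 7.84 in Cav-3KO, with 3 of 6 lower and 0 higher (1 lower without WT 1, WT 3 or Cav-3KO 3). Brown adipocyte markers were lower in 3 of 5, and their list means, with the widest mean difference of the 11 cell type lists, were 8.56, 8.25 and 9.80 in WT and 6.85, 6.85 and 6.71 in Cav-3KO. White adipocyte markers were lower in 4 of 6, with list means from 11.33 to 11.57 in WT and from 10.57 to 10.94 in Cav-3KO. Endothelial markers were lower in 2 of 5 and macrophage markers in 1 of 6, with list means that did not overlap between the genotypes. The macrophage share, 16.7%, was near that of all named genes passing in either direction. The endothelial count was 0 without WT 2, WT 3 or Cav-3KO 3 and 1 without WT 1 or Cav-3KO 1. The macrophage count was 0 without WT 1, WT 2, Cav-3KO 2 or Cav-3KO 3. B cell markers were lower in 5 of 5, with 1 of them, Pax5, below the highest Y-linked mean in both genotypes, and T cell markers in 4 of 6. The B cell count was 2 without WT 1, WT 3 or Cav-3KO 3 and 3 without WT 2 or Cav-3KO 2. The T cell count was 1 without WT 3 or Cav-3KO 1, 0 without Cav-3KO 3 and 2 without any other array. T cell list means ranged from 7.46 to 7.88 in WT and from 6.92 to 7.08 in Cav-3KO, and B cell means reached 8.29 in WT and 7.57 in Cav-3KO. Skeletal muscle means varied most, from 5.50 to 9.12 in WT and from 5.02 to 7.16 in Cav-3KO, with 0 of 10 markers past the limma threshold and 0 at an unadjusted p under 0.05. Fibroblast list means overlapped, from 11.80 to 12.20 in WT and from 11.85 to 12.41 in Cav-3KO. Of 5 fibroblast markers 0 passed the threshold, with 2 at an unadjusted p under 0.05.

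In the wider JAK, STAT and SOCS family, 2 of 11 other measured genes were higher and 0 lower, with 5 at an unadjusted p under 0.05 and a median log2 difference of 0.06. That share, 18.2%, stands beside the 7.65% of all named genes that were higher. It is also the share of the list that passed in either direction, near the 16.2% of all named genes. Socs5, a relative that restrains interleukin-4 and epidermal growth factor signalling, read 8.64, 8.63 and 8.58 in WT and 9.20, 9.12 and 9.23 in Cav-3KO and rose by 0.56 ± 0.08 (adjusted p = 0.00645). Its second probe set did not follow, at −0.16. Stat3, the STAT that drives involution after weaning, read 10.04, 9.85 and 10.12 in WT and 10.68, 10.47 and 10.51 in Cav-3KO and rose by 0.55 ± 0.11 (adjusted p = 0.0164). Socs6 differed by −0.32 ± 0.11 (adjusted p = 0.104), and its other 2 probe sets were lower past the threshold, 1 of them with both genotypes below the highest Y-linked mean. The count of higher genes was 1 without WT 2 and 1 without Cav-3KO 3.

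Other inhibitors of the pathway gave 1 higher and 0 lower of 13, with a median of −0.16. That share, 7.69%, is about the 7.65% of all named genes that were higher, so the count sets this list apart in no way. Ptpn2, a phosphatase that acts on JAK1, JAK3 and STAT5, rose by 0.39 ± 0.09 (adjusted p = 0.0299), while 0 of its 3 other probe sets passed. That call was lost without any 1 array other than Cav-3KO 1. The phosphatase gene Ptpn6 differed by −0.28 ± 0.08 (adjusted p = 0.0581), while its other probe set was lower past the threshold at −0.57 ± 0.13 (adjusted p = 0.0311). The difference of the adaptor gene Grb10 was −0.31 ± 0.10 (adjusted p = 0.0718).

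Of 15 measured cytokine receptors and ligands 0 passed the limma threshold and 4 had an unadjusted p under 0.05. Both genotypes lay below the highest Y-linked mean for 7 of them (Lepr, Prl, Gh, Lif, Il6, Il4 and Il13), so no difference is read for these. The other 8 had differences below 0, also under cyclic loess and median centring. Ghr, the growth hormone receptor, read 12.01, 12.29 and 12.19 in WT and 11.88, 11.84 and 11.46 in Cav-3KO, a difference of −0.44 ± 0.14 (adjusted p = 0.0769). Its other 2 probe sets differed by −0.65 ± 0.12 (adjusted p = 0.0124), past the threshold, and by −0.57 ± 0.15 (adjusted p = 0.0504). The prolactin gene itself, Prl, chosen for its role, read 3.44, 3.60 and 3.50 in WT and 3.44, 3.78 and 3.32 in Cav-3KO. Without Cav-3KO 1 and without Cav-3KO 2, 1 and 2 genes of this list were lower.

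Genes that respond to prolactin in the gland had the highest median of the 6 related lists, 1.54. It was 1.02 with genes at their bounds and without the 2 whose levels were below the highest Y-linked mean in both genotypes, and still the highest of the 6. Of 16 measured 7 were higher and 0 lower, a share of 43.8% higher beside 7.65% of all named genes. Gjb2, a connexin of secretory epithelium, read 5.74, 6.22 and 5.64 in WT and 10.50, 10.16 and 11.24 in Cav-3KO. It rose by at least 4.45 (adjusted p = 4.02e-04 for the fitted difference of 4.77), a bound because the WT mean was below the highest Y-linked mean. Csn1s1, an alpha casein gene, rose by 3.79 ± 0.54 and Muc1, a mucin of the milk fat globule, by 2.02 ± 0.38. The others past the threshold were Csn2, Csn3, Csn1s2a and Wnt4. The count was 4 without WT 1, 2 without WT 3 and 3 without Cav-3KO 3.

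Partners of STAT5 and ELF5 in alveolar development gave 5 higher and 0 lower of 12, with a median of 0.52. The share higher was 41.7%, beside 7.65% of all named genes. Sox9, a progenitor transcription factor whose WT arrays lay below the highest Y-linked mean, rose by at least 0.95 (adjusted p = 0.00164 for the fitted difference of 1.41). Cited4, a transcriptional co-regulator, rose by 3.05 ± 0.33. Nfib, which acts with STAT5 on milk genes, rose by 0.76 ± 0.10 and Xbp1, needed for secretory cells, by 0.73 ± 0.10. Gata3, the luminal fate regulator, read 8.37, 8.06 and 7.98 in WT and 9.01, 8.84 and 9.01 in Cav-3KO and rose by 0.82 ± 0.12.

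Elf5 was not the only ETS-domain gene that rose. Of 14 measured relatives 4 were higher and 0 lower, with a median of 0.08. That is 28.6% higher, beside 7.65% of all named genes. Ehf, an epithelial relative of Elf5, read 8.59, 8.28 and 7.73 in WT and 10.73, 10.30 and 10.70 in Cav-3KO and rose by 2.38 ± 0.22 (adjusted p = 0.00130), a difference of similar size to that of Elf5. Etv6, a repressor, rose by 1.73 ± 0.12 on this probe set, and its other one also passed, with a WT mean below the highest Y-linked mean. Ets2 rose by 0.88 ± 0.12 and Elf2 by 0.47 ± 0.10. Without Cav-3KO 1 the list had 3 higher and 2 lower genes.

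**Figure D4:**
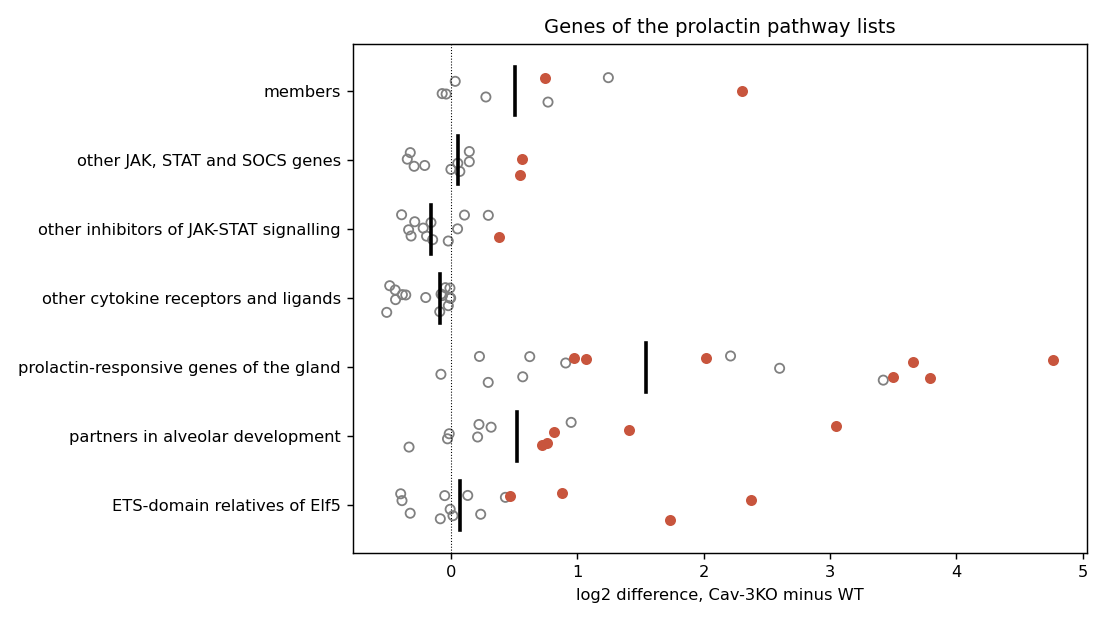
Log2 difference, Cav-3KO minus WT, of each measured gene in the 8 members and 6 related lists. Filled points passed the adjusted threshold and black bars are list medians. Points are spread vertically only to separate them. Fitted differences are plotted, also for genes below the highest Y-linked mean in 1 or both genotypes, where they are not exact. The point farthest to the right is Gjb2, whose difference is at least 4.45, and no filled point lies below 0.

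Within a genotype the members did not rank the arrays alike. WT 2 was the lowest WT array for Stat5a and Socs2. Yet it was the highest for the caseins and Wap, the whey acidic protein gene: Csn1s1 read 8.69, 10.92 and 8.71 in WT, and Wap 5.56, 9.50 and 5.79, below the highest Y-linked mean in WT 1 and WT 3. Among Cav-3KO arrays, Cav-3KO 2 was the highest for Elf5 and Cish and the lowest for Socs2. Wap read 8.43, 12.48 and 10.19 in that group (difference 3.42 ± 1.24, adjusted p = 0.118). Tnfsf11, which encodes RANKL, the paracrine signal for alveolar growth, read 4.14, 4.35 and 4.43 in WT and 8.43, 3.46 and 7.66 in Cav-3KO (adjusted p = 0.245). The WT arrays and Cav-3KO 2 were below the highest Y-linked mean, so they have no order among them, and Cav-3KO 1 and Cav-3KO 3 were above it. These array patterns were picked after the values were seen and rest on single arrays.

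**Figure D5:**
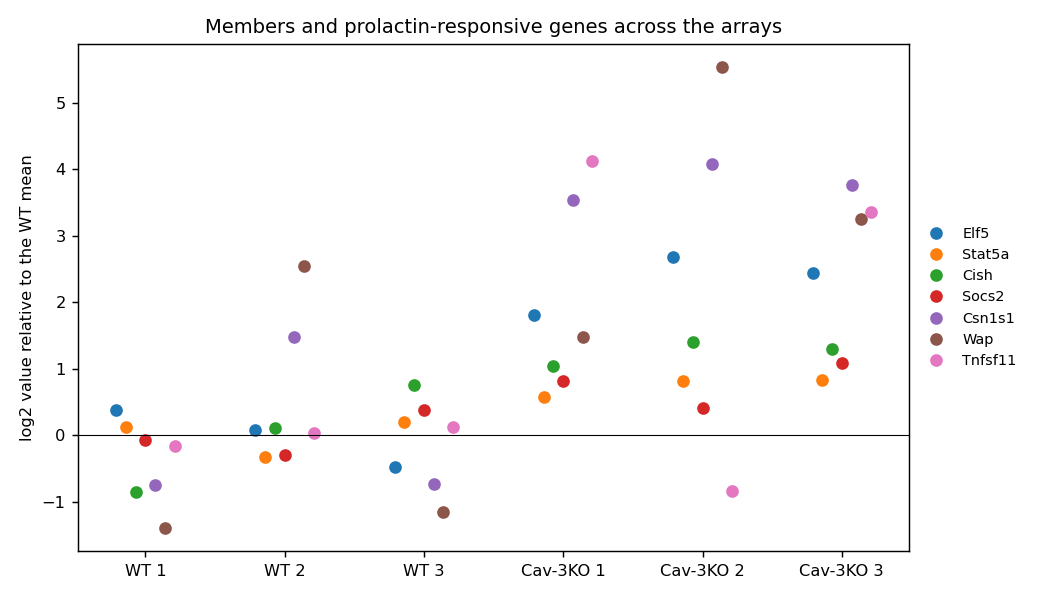
Log2 value relative to the WT mean for 4 members and 3 prolactin-responsive genes on each of the 6 arrays, with points shifted sideways to separate the genes. Cav-3KO 2 has the highest Wap and Elf5 and the lowest Tnfsf11 and Socs2 of its group. WT 2 stands above the other WT arrays for Wap and Csn1s1 only.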

How the data were processed

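Labelled cRNA of 6 mammary gland samples was read on Affymetrix mouse arrays. The deposited values are log2 values, 1 per probe set and array, and the authors obtained them by RMA (background correction, quantile normalization, probe summary), as the submitters' processing notes name it. A shift of most transcripts would be removed, and changes of dim sets are compressed. The sources used here give no version or genome build. The number of arrays limits the precision.

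Groups and replicate numbers come from the titles. Of 45101 probe sets, 64 controls were left out. Sets were named from the platform annotation where it gave 1 symbol (34945 sets, with 932 giving several and 9160 not listed), updated through Entrez identifiers to RefSeq symbols (GRCm38.p6, with 204 unmatched). Cav-3KO was set against WT in R 4.3.3 by limma 3.58.1 (eBayes, two-sided, genotype alone in the model), without a filter on dim sets. Exact permutation tests used all 20 splits of the 6 arrays. Promoter windows are RefSeq's. Figures were drawn with matplotlib 3.10.9.

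The members, lists and tests were chosen with earlier results of these data known. All measured members are named. From each related list the 3 genes with the smallest p are named, and all that passed where 5 or fewer did. The 3 profiles most like a member are named where it passed with a log2 difference of at least 1. Csn2, Csn3, Csn1s2a, Wnt4, Prl, Wap, Tnfsf11, Pax5 and 4 low cytokine genes (Gh, Il6, Il4, Il13) were named outside this rule. Bounds were added after seeing the data. Alternatives were median centring, cyclic loess, a filter on dim sets, an intensity trend with a robust prior, array weights, the replicate number as a block, each array left out, fewer or averaged probe sets, a skeletal muscle covariate, other thresholds and basal markers as reference. Leaving out only the sets ending _x_at or _s_at was added after seeing the data. Deviations of same-numbered arrays had correlations of −0.054, 0.185 and −0.018. Those of differently numbered WT and Cav-3KO arrays ran from −0.195 to 0.26. With 3 arrays per group these values cannot decide whether the numbers pair the samples. The titles do not say so, and the numbers were not treated as pairs.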

Additional observations from a re-analysis of the deposited data

How the results depend on the processing

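Elf5 passed the limma threshold under every alternative run, and Stat5a under 13 of 15. The count of members called, 2, was 4 with the filter on dim sets, 4 with the replicate block, 1 without sets ending _x_at, _s_at or _a_at (where Stat5a, Stat5b and Socs1 have no value), 1 with the muscle covariate, and 1 or 5 at thresholds of 0.01 or 0.1. With 1 array left out it ran from 1 to 4. Stat5a (0.58 to 0.85 with 1 array left out) was 0.66 with the muscle covariate (adjusted p = 0.0556). Cish (0.82 to 1.62) passed at an unchanged 1.25 with the filter and the block (adjusted p = 0.0416 and 0.0256). Socs2 (0.61 to 0.96) passed at an unchanged 0.77 with both (0.0404 and 0.00882) and at 0.84 with array weights (0.0275). With the muscle covariate neither Cish nor Socs2 passed (adjusted p = 0.1395 and 0.1305). Averaging all probe sets per gene gave Socs2 a difference of 0.393 (adjusted p = 0.0743) and Stat5b one of 0.147 (0.215). The titles do not say that the numbers pair the samples, so the fit with the replicate block is given here only. Jak2 turned to −0.0083 with array weights and ran from −0.0324 to 0.13 with 1 array left out. Socs3 ran from −0.41 to 0.27, was 0.0503 under both reductions of probe sets and 0.0293 with the covariate. Cish minus the luminal mean ran from −0.46 to 0.50. Over all 45037 probe sets, 5547 passed, 1523 and 8724 at 0.01 and 0.1, and 2218 to 5987 with 1 array left out. The 2941 genes became 867, 4466 and 1235 to 3181. With the filter on dim sets, which left fewer sets to adjust over, the differences of the members that kept a value were unchanged. Under both reductions of probe sets by suffix, Socs3 was read from another of its sets. The cause of the other moves was not tested. The filter left Socs1 without a value.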
